A study of Caenorhabditis elegans with 2 samples.

Results

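The regions described here are 679 stretches of Caenorhabditis elegans autosomal coding exon, far from the annotated 5' end of every protein-coding gene. They ranked among the 5000 strongest regions listed for the nuclear hormone receptor NHR-76 in chromatin immunoprecipitation sequencing (ChIP-seq) of first-stage (L1) larvae. They were chosen from the pooled list of 30000 regions, each 324 bp wide, on the ce11 build. A kept region was among the 5000 with the highest pooled signal, overlapped no tRNA, snoRNA or snRNA gene and lay on an autosome. Its summit was over 1 kb from the 5' end of every protein-coding gene and inside a coding exon. Of the 5000, 4766 overlapped no tRNA, snoRNA or snRNA gene and 3871 of these were autosomal. Of the 3871, 2111 were far from 5' ends and 679 of these had a coding summit. The pooled signal chose the regions, so it is given as a description and supports nothing.

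The worms were strain OP203, of genotype unc-119(ed3) III; wgIs203, in which a transgene expresses NHR-76 fused at the C terminus to GFP-FLAG. Whole organisms of both sexes were pooled at the L1 stage, and their age is recorded as unknown. There were 2 libraries, biological replicates 1 and 2, in 1 group, with no second condition, so no test between conditions exists and no value below has a p-value. The tag sits on a transgene that both libraries carry, signal from all tissues is mixed, and a control library is named in the labels but was not analysed here. The number of reads behind each list is unknown, since the files hold peak-caller values and no counts. Each library's own list also holds 30000 regions, so a large part of any list is weak signal that the submitters passed on for the comparison of replicates, and a stricter list of 248 regions kept those that were called reproducible between replicates. Those 248 were exactly the 248 top rows of the pooled list.

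Nuclear hormone receptors are transcription factors that bind short DNA motifs through a zinc-finger domain, and many respond to small lipophilic ligands. Nematodes carry a greatly expanded family of them, and NHR-76 has been linked to serotonin-driven fat loss in the intestine. Binding sites of transcription factors are mostly found in promoters and enhancers, while coding exons are constrained by the protein they encode. ChIP-seq recovers the DNA fragments that cross-link to a factor, counts where they pile up, and calls a peak where they exceed the surroundings; the summit is the highest point of that pile.

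The sequences below are 151 bp around the summits of the strongest of these regions, of the region in the nhr-76 gene itself and of the strongest region in unc-52, a gene with several of them. They show what the signal lay on, which was protein-coding sequence and, at some, a short piece of the neighbouring intron. Each is read 5' to 3' on the strand of its gene, with coding bases in capitals and other bases in lower case, from the RefSeq copy of the ce11 assembly.
npr-39, chrV:10068056-10068206, plus strand: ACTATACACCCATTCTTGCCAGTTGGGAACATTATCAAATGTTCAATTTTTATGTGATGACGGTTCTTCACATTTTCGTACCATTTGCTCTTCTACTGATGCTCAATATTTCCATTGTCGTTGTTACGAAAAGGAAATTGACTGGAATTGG
osm-12, chrIII:12199379-12199529, minus strand: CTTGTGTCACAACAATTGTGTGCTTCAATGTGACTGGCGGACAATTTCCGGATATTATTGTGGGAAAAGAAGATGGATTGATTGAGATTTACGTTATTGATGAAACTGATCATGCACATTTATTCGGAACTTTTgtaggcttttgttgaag
Y75B8A.7, chrIII:12159240-12159390, plus strand: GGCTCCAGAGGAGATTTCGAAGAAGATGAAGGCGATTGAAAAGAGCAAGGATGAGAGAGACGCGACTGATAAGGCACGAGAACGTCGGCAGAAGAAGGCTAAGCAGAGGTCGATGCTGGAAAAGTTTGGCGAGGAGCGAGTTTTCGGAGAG
nrps-1, chrIII:11542985-11543135, plus strand: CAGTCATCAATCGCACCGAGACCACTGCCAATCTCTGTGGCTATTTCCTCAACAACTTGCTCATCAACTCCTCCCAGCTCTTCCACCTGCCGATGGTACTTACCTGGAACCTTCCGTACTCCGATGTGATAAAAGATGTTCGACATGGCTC
nhr-76, chrIV:631927-632077, plus strand: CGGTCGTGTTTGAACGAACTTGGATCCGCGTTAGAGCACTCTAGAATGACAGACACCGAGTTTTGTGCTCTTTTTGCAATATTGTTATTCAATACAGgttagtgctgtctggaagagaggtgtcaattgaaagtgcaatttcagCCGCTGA
unc-52, chrII:14656862-14657012, minus strand: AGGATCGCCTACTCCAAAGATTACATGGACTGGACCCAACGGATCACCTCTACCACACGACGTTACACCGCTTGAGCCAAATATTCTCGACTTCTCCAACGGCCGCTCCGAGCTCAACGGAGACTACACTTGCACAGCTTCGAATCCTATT
The windows of npr-39, Y75B8A.7 and nrps-1 were coding throughout, as was that of unc-52, while 134 of 151 bases were coding in osm-12 and nhr-76 had an intron within the window. GC content ranged from 36.4% in npr-39 to 51.7% in Y75B8A.7 and unc-52. TGATAA, the core letters of GATA-factor sites, was present on one strand or the other in npr-39, Y75B8A.7 and nrps-1, and GAGAGA was present in Y75B8A.7. AGGTCA, the classical half-site of nuclear receptors, was in none of them.

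The pooled signal of the 679 regions ran from 13.98 to 31.2 with a median of 15.8, in the peak caller's units, which the sources used here do not define. Autosomal intronic regions far from 5' ends in the same 5000 numbered 658, with a median of 16.3 and a maximum of 69.2, and intergenic ones numbered 576, with a median of 16.4 and a maximum of 49.9. The coding regions were few among the strongest ranks. They made up 1 of the 248 top rows (0.403%, Wilson 95% interval 0.0712 to 2.25%), 7 of rows 249 to 500 (2.78%), 56 of rows 501 to 1000 (11.2%), 133 of rows 1001 to 2000 (13.3%) and 482 of rows 2001 to 5000 (16.1%). In the 248 top rows, 21 regions were intronic (8.47%) and 20 intergenic (8.06%). Over the 5000 rows the coding class held 13.6% (12.7 to 14.6%), and over all 30000 listed rows 14.65% (14.3 to 15.1%), so it was not enriched among the stronger listed rows as a whole. All intervals cover counting error only.

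**Figure D1:**
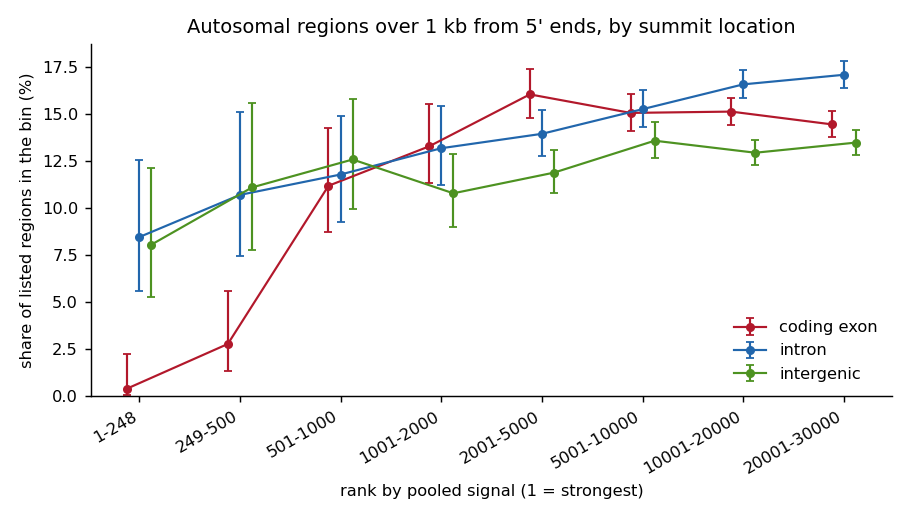
Share of the pooled list taken by autosomal regions far from 5' ends, by rank of pooled signal, for coding, intronic and intergenic summits; the vertical axis is percent of listed rows in each rank bin and bars are Wilson 95% intervals. The coding share was 0.403% in the 248 top rows and 16.1% in rows 2001 to 5000.

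The list of reproducible regions, which covered 0.827% of the 30000 pooled rows, held 1 of the 679 (0.147%). Since that list was the 248 top rows of the same pooled ranking, this repeats the counts by rank given above and is no separate result. A pooled q of 0.05 or less was reached by 2.32% of the pooled list and 13.9% of its 5000 strongest rows. It was reached by 32 coding regions (4.71%), 64 intronic (9.73%) and 73 intergenic ones (12.7%). Because the regions were taken from the top of the same ranking, these pooled counts are fixed in part by the rule and nothing is read from them. In library replicate 1, 2.73% of pooled rows and 13.1% of the 5000 strongest overlapped a region of q 0.05 or less. Of the coding regions 45 did (6.63%), with 76 intronic (11.6%) and 64 intergenic ones (11.1%). In library replicate 2 these shares were 6.59% and 26.4%, and 121 coding regions did (17.8%), with 156 intronic (23.7%) and 137 intergenic ones (23.8%). A q of 0.05 or less in both libraries was reached by 1 coding region (0.147%), against 0.973% of all pooled rows and 5.52% of the 5000 strongest. In each of these counts the coding share lay below that of the 5000 strongest rows. The libraries went into the pooled signal, so these shares are likewise no independent support.

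The strongest of them was in npr-39, named as a neuropeptide receptor. This region, V:10067969 to 10068292, ranked 235 with a pooled signal of 31.2 and was the 1 coding region in the reproducible list. Its signal was 2.98 times the median listed region in replicate 1 and 2.20 times in replicate 2, and its summit lay in coding exon 5 of 7, 1062 bp from the 5' end of the gene, close to the distance limit. The next was in osm-12 (III:12199292 to 12199615), the Bardet-Biedl syndrome protein BBS7 that works in ciliary transport, with a pooled signal of 30.6 and 1.45 and 2.69 times the median in replicates 1 and 2. Y75B8A.7 followed at 28.2, with 1.48 and 2.70 times the median. The region in nrps-1, a nonribosomal peptide synthetase, had a signal of 27.7 but 0.902 times the median in replicate 1 against 3.18 in replicate 2, so replicate 2 held its high value. Replicate 2 was the higher library in each of these except npr-39.

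Among the others of the 15 strongest, zip-2, a bZIP transcription factor of the pathogen response, stood at 26.6, with 1.66 and 3.69 times the median. In let-711, the scaffold subunit of the CCR4-NOT deadenylase, the signal was 26.2, with 1.45 and 2.82 times the median. Y73F8A.5 had 26.02, with 1.74 and 2.17. The region in unc-33, a CRMP protein of axon guidance, had 25.5, with 1.89 and 1.79. epi-1, a laminin alpha chain of basement membrane, had 23.6, with 1.62 and 2.43. F59E12.1, F54F12.1, T26C12.1, mogs-1 (a glucosidase of N-glycan trimming), jac-1 (a p120 catenin of cell junctions) and dxbp-1 made up the rest, with signals of 24.3, 24.0, 23.9, 23.8, 23.5 and 23.3. In replicate 2, the zip-2 region was the highest of the 15 and F54F12.1 the lowest at 1.12 times the median.

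Some of these sat near the 5' end of a protein-coding transcript although they were far from the annotated 5' end of every protein-coding gene. The summits in unc-33, zip-2 and let-711 lay 67, 402 and 844 bp from the nearest 5' end of any protein-coding transcript. Of the 679 regions, 15.3% (12.8 to 18.2%) were within 1 kb of such an end, against 14.5% of the 3716 lower-ranked regions of this location, 12.7% of 37380 tiles of all such coding sequence and 24.3% of the intronic regions. The interval of the 679 held the share of the lower-ranked coding regions, while the share of the tiles lay just below it and that of the intronic regions above it.

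The libraries did not both list every one of these regions. Listed regions of both libraries overlapped 443 of the 679 (65.2%, 61.6 to 68.7%), replicate 1 alone overlapped 114, replicate 2 alone 120 and neither 2. The matching share was 19.9% for the lower-ranked regions of this location, 71.3% for intronic and 70.8% for intergenic regions. It was 28.4% over all pooled rows and 69.9% over the 5000 strongest. For autosomal coding regions of the 5000 within 1 kb of a 5' end it was 66.5%. Where a library listed it, a coding region stood at a median of 1.35 times that library's median listed region in replicate 1 (557 regions, 0.721 to 3.03) and 1.34 times in replicate 2 (563 regions, 0.718 to 3.69). Across the 443 regions in both, the rank correlation of the libraries was -0.293 (Spearman; Pearson -0.258 on the log2 scale). It was -0.0241 over the intronic and -0.0148 over the intergenic regions and 0.160 over the 8508 pooled rows with both libraries. The points were selected on a pooled signal that both libraries went into, and the sets differ in the range of that signal. These coefficients are therefore a description, and nothing is read from their sign or from the contrast between sets. Replicate 1 was the higher library in 241 and replicate 2 in 202, and 76 differed by more than 2-fold.

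**Figure D2:**
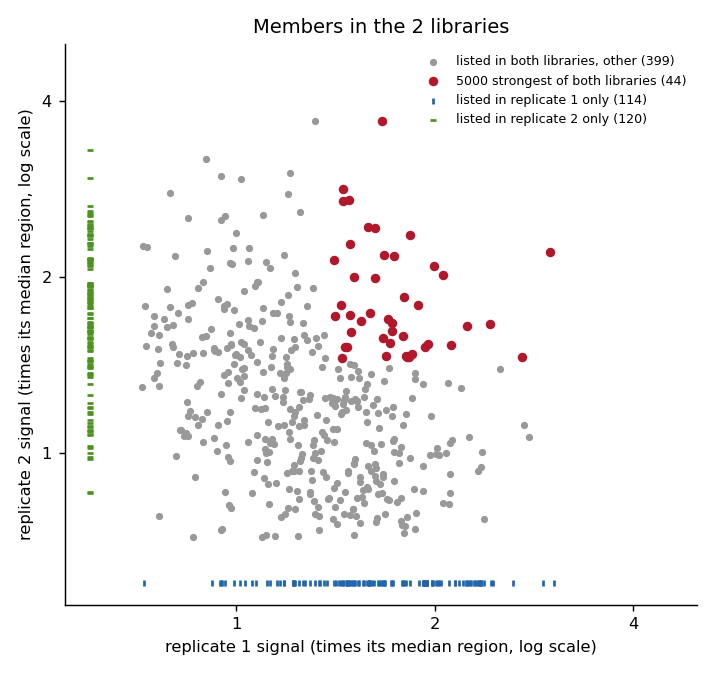
Signal of the coding regions in replicate 1 (horizontal) against replicate 2 (vertical), each as times the library's median listed region on log axes; marks along the edges are regions listed in 1 library only, and red points are the 44 regions in the 5000 strongest of both libraries. The 44 red points are few beside the 443 regions listed in both libraries.

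In each library's own list, the 5000 strongest regions matched 262 of the 679 in replicate 1 (38.6%) and 246 in replicate 2 (36.2%). These shares were 15.2% and 15.1% over all pooled rows, and 42.8% and 44.5% over the 5000 strongest pooled rows. A match in both was found for 44 (6.48%, 4.86 to 8.59%), against 85 intronic (12.9%) and 77 intergenic regions (13.4%). The share in both was 2.76% over all pooled rows and 14.5% over the 5000 strongest pooled rows. These 44, in 44 genes, had ranks from 235 to 4265, a median pooled signal of 19.996 and a median GC of 41.7%, and 11 of them (25%, 14.6 to 39.4%) had a transcript 5' end within 1 kb. They included 15 of the 20 strongest coding regions, among them npr-39, osm-12, Y75B8A.7, zip-2, let-711 and unc-33, but not nrps-1. Others were lin-44, a Wnt ligand, and puf-5, an RNA-binding protein of the germ line.

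In sequence, the coding regions were slightly richer in GC than coding sequence of the same location that ranked lower. Their median GC was 41.0%, against 39.8% for the lower-ranked regions and 39.2% for all tiles, and 39.8% for the intronic and 38.3% for the intergenic regions. By rank, the median GC of the coding class was 38.9% for the 1 region in the 248 top rows, 47.8% for the 7 in rows 249 to 500, 41.4% in rows 501 to 1000, 41.98% in rows 1001 to 2000, 40.7% in rows 2001 to 5000 and 39.5% in the weakest 10000, so it did not fall evenly with rank. Higher GC at stronger ranks was not particular to the coding class. The intronic median was 49.7% in the 248 top rows and 35.5% in the weakest 10000, and the intergenic median 42.1% and 34.6%. Across all locations it was 39.5% in the 5000 strongest rows and 37.3% over all pooled rows. When each library's own list was used, the median of the coding class was 41.3% on replicate 2 and 40.4% on replicate 1. The part of GC in the recovery of reads was not tested.

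**Figure D3:**
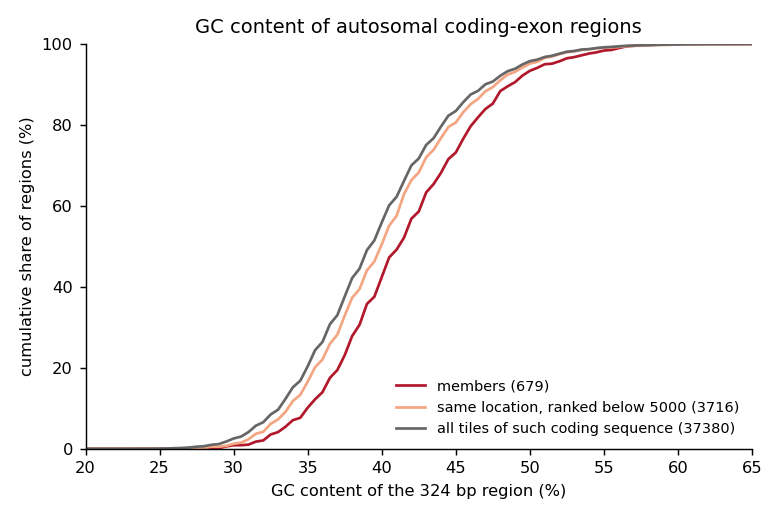
Cumulative distribution of GC content of the 679 coding regions, the lower-ranked coding regions of the same location and all tiles of such sequence; the horizontal axis is GC percent and the vertical axis percent of regions at or below it. The coding regions lie to the right at the median, 41.0% against 39.8% and 39.2%.

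Repeats were scarce in them. The median soft-masked share was 11.4%, against 14.8% in lower-ranked regions, 16.0% in tiles and 23.1% in both the intronic and intergenic sets. A second genomic match of at least 50 bp at 95% identity was present in 3 regions (0.442%), in vha-11, unc-44 and madd-2, against 1.70% of the lower-ranked regions, 5.90% of tiles and 5.62% of the intronic regions. How reads that match several places were treated is not given in the sources used here.

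The place of the summit along the coding sequence was close to that of coding sequence in general, but more of the regions were wholly coding. The coding exon that held the summit had a median length of 334 bp, against 306.5 bp in lower-ranked regions and 298 bp in tiles, and the coding sequence of the gene had a median of 2121 bp against 2031 and 2034 bp. The summit lay at a median of 60.1% along the coding sequence, against 59.7% and 60.8%. It lay in the last coding exon in 105 regions (15.5%), against 14.5% and 14.6%. A region was wholly coding in 193 cases (28.4%, 25.2 to 31.9%), against 22.6% of lower-ranked regions and 21.5% of tiles, both below the interval. The gene was on the minus strand in 49.5% of them. A stronger listed region within 1 kb was present for 23 (3.39%), against 22.04% of the lower-ranked ones, a difference that the rank limit builds in.

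Of 8 motifs searched on both strands within 75 bp of the summit, most were in a share of the coding regions whose Wilson interval held the share of lower-ranked regions and of tiles. AGGTCA was in 18 (2.65%, 1.68 to 4.15%), against 3.36% of lower-ranked regions and 3.03% of tiles, and against 5.47% of the intronic and 5.73% of the intergenic regions. AGTTCA was in 76 (11.2%), against 11.0% and 11.0%. TGATAA was in 82 (12.08%), against 13.4% and 13.9%. GAGAGA was in 59 (8.69%), against 8.56% and 8.07%, but in 17.2% of the intronic and 22.7% of the intergenic regions. GGGCGG was in 20 (2.95%, 1.91 to 4.51%), against 2.74% and 2.10%, and TGACTCA in 11 (1.62%), against 1.48% and 1.44%. The exception was CACGTG, in 38 (5.596%, 4.10 to 7.59%), against 4.57% of lower-ranked regions, within the interval, and 4.05% of tiles, just below it. TTACGTAA was in 0 of the 679 (Wilson interval up to 0.563%) and in 0.0856% of tiles. A match is only a run of letters and not a shown binding site.

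The regions were spread thinly over many genes. The 679 summits fell in 624 genes, of which 578 held 1, 39 held 2 and 7 held 3 or more. Neighbouring regions overlapped in 3 pairs, had summits within 1 kb in 7 and within 5 kb in 47. One overlapping pair lay in zip-2, where a second region at III:834751 to 835074 ranked 1513. It stood at 1.32 times the median in replicate 1 and shared its replicate 2 region, at 3.69, with the stronger zip-2 region. A region in dos-3 followed at III:835826 to 836149, with rank 1487 and 1.84 and 2.36 times the median. Coding sequence of this location was present in 12138 genes and amounted to 12.11 Mb, so there were 56.1 regions per Mb (exact Poisson interval 51.9 to 60.5) and 5.14% of those genes held at least 1. By length of eligible coding sequence, the density was 45.9 per Mb (34.8 to 59.5) in genes with under 0.5 kb and 65.9 per Mb (49.5 to 85.9) in the 63 genes with over 8 kb, of which 33 held a region, and the intervals overlapped. Per chromosome the density was 67.8 per Mb on III (57.4 to 79.5), 62.5 on IV, 55.4 on II, 54.3 on I and 43.8 on V (36.4 to 52.2).

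Large structural proteins of muscle, matrix and cytoskeleton were among the genes with the most regions, and several of them are among the longest genes. mua-3, a transmembrane protein that anchors tissues to the cuticle, held 5 regions in 11.2 kb, with pooled signals of 15.5 to 19.1. The strongest of them stood at 0.844 and 1.16 times the median in replicates 1 and 2. Those ranked 1652 and 1812 were listed in replicate 1 only, and the latter lay 400 bp from a transcript 5' end. The genes with 3 each were frm-1 (a FERM-domain protein, 13.9 kb), pqn-87 (a glutamine- and asparagine-rich protein, 4.54 kb), unc-44 (ankyrin, 21.2 kb), unc-52 (perlecan, 12.6 kb), unc-68 (the ryanodine receptor, 15.7 kb) and unc-89 (obscurin, 24.2 kb). The strongest unc-68 region had a signal of 21.6, with 1.35 and 1.402 times the median in replicates 1 and 2, and the strongest unc-52 region 19.3, with 1.51 and 1.997. One of the unc-89 regions was listed in neither library, and another in replicate 2 only. Other long genes held none. ttn-1, a titin-like protein with 54.3 kb, held none although it had 14 listed regions, and dig-1, a giant matrix protein with 39.1 kb, held none and had 2 listed regions. unc-22, twitchin, with 21.97 kb, held none and had 8 listed regions.

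Gene groups were set by name pattern, and their counts are to be read against 56.1 per Mb over all eligible genes. Basement membrane and matrix genes had 12 regions in 5 of 19 genes (111 per Mb, 57.1 to 193), of which mua-3 held 5 and unc-52 held 3. Without mua-3 the matrix genes stood at 72.0 per Mb (28.9 to 148). Muscle sarcomere genes, a list that shares unc-52 with the matrix list, had 14 in 8 of 34 (70.6, 38.6 to 118), among them unc-54 and myo-3, the muscle myosin heavy chains. Chromatin regulators had 17 in 14 of 84 genes (91.1, 53.1 to 146), led by set-16, trr-1 and jmjd-1.2. The strongest set-16 region, like the myo-3 region, was listed in replicate 1 only. Cytoskeleton and motor genes had 12 in 8 of 46 (62.8). Translation factors and tRNA synthetases had 7 in 7 of 58 (103, 41.4 to 212), and genes of glycolysis, the TCA cycle and respiration had 6 in 5 of 41 (153, 56.1 to 333), with pck-1 of gluconeogenesis and icl-1 of the glyoxylate cycle. The lower bounds of the matrix genes and of the glycolysis, TCA cycle and respiration genes lay at or just above the overall density, and the other intervals given held it. Without icl-1, which held 2, the glycolysis, TCA cycle and respiration genes stood at 107 per Mb (29.2 to 275). The pck-1 region was listed in replicate 1 only. These lists were compared without a test.

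Chemoreceptor genes, a family of odorant-type receptors expressed in few neurons each, held 13 regions in 13 of 1067 genes (30.4 per Mb, 16.2 to 51.9), under the overall density. Their eligible sequence was short, 428 kb over the 1067 genes. The interval held the 45.9 per Mb of all genes with under 0.5 kb of eligible sequence, and the part of gene length was not tested. The strongest chemoreceptor region was in str-173, at 22.3. Nuclear hormone receptor genes held 7 in 7 of 230 (44.1, 17.7 to 90.8), led by nhr-76, nhr-61 and nhr-164. Neuronal channel and synaptic genes held 11 in 11 of 96 (69.0, 34.5 to 124), led by egl-2, an EAG-type potassium channel, at 23.04. Lipid metabolism held 7 in 6 of 83 (74.6, 29.98 to 154), among them cpt-1, a carnitine palmitoyltransferase, and fasn-1, fatty acid synthase. Ribosomal protein genes (5 eligible), histones (3 eligible) and the neuron markers (15 eligible) held none. Their eligible sequence was only 1.23, 0.861 and 22.4 kb. The upper bounds were 3006, 4284 and 164 per Mb, all above the overall density, so nothing is read from these absences. Intestine markers held 1 in 1 of 39 genes, cpr-1, and that region was listed in replicate 1 only.

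The remaining groups lay near the overall density or held few regions. Proteasome and ubiquitin genes held 7 in 6 of 52 genes (interval 30.1 to 155 per Mb), led by usp-4, a ubiquitin protease, at 18.9. Splicing, RNA helicase and RNA polymerase genes held 7 in 7 of 65 (51.5), among them prp-8 of the spliceosome at 20.1 and ama-1, the large subunit of RNA polymerase II, at 18.1. F-box, MATH-BATH and C-type lectin genes held 15 in 14 of 462 (62.4), with both regions of clec-80 among them. The stronger clec-80 region was listed in replicate 2 only. Transporters held 8 in 8 of 91, led by aqp-2, an aquaporin, at 21.7. Chaperones held 4 in 4 of 44 (99.3), among them hsp-1, the HSC70 chaperone, at 15.4. Cuticle collagens and cuticlins held 3 in 3 of 134 (36.7), led by col-86 at 21.2. Germline markers held 5 in 5 of 76 genes, hypodermis markers 4 in 4 of 49, homeobox genes 2 in 2 of 61 (lim-8 and lin-39), and the Argonaute and vitellogenin lists 1 each, in prg-1 and rme-2. The lim-8 region was listed in replicate 1 only and the lin-39 region in replicate 2 only. Whole larvae were used, so these counts say nothing of the tissue the signal came from.

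**Figure D4:**
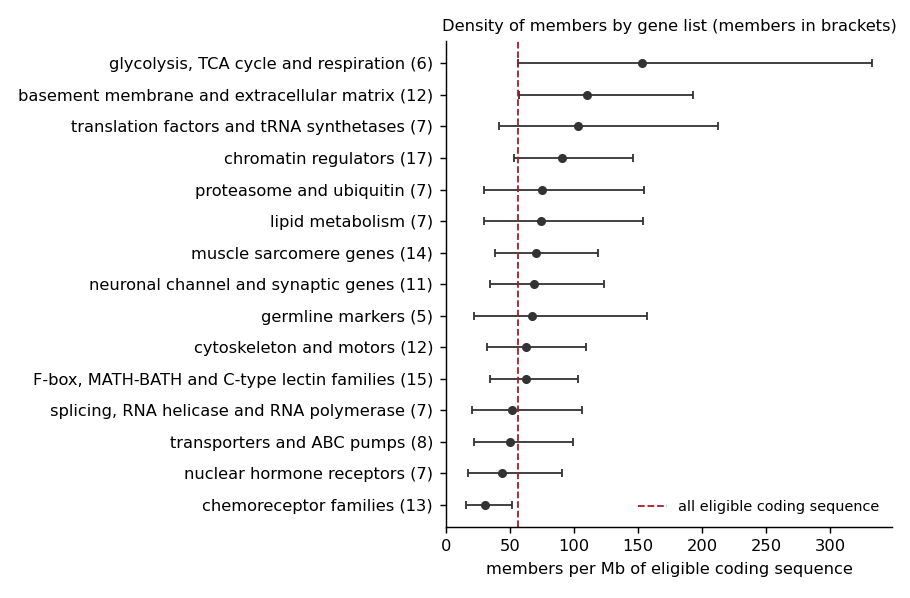
Coding regions per Mb of eligible coding sequence for each gene group with at least 5 of them, with exact Poisson 95% intervals; the line marks the density over all eligible genes, 56.1 per Mb. Chemoreceptor genes lay under the line, at 30.4, and matrix genes over it, at 111, or at 72.0 without mua-3. The chemoreceptor interval, 16.2 to 51.9, held the 45.9 per Mb of all genes with under 0.5 kb of eligible sequence.

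The nhr-76 gene held 1 of the 679 regions, at IV:631840 to 632163. It ranked 1406 with a pooled signal of 18.8, its summit was in coding exon 7 of 9, 4465 bp from the 5' end of the gene, and its GC was 46.9%. It stood at 2.33 times the median in replicate 1 and was not listed in replicate 2, so it rests on 1 library. Within 25 kb of the nhr-76 5' end, 25 regions were listed and 9 of these were in the top 5000. Over the whole list, 5000 of 30000 regions were. Of the 9, 2 were coding regions, against 13.6% of the whole 5000. The other, in K11H12.9 (rank 2137, 17.1), had 2.43 and 1.66 times the median. The strain carries the transgene wgIs203, whose part in the signal at this locus was not tested. Of 10 eligible genes in a list on the fat-loss pathway, nhr-76 and ser-5, a serotonin receptor, held a region, against 5.14% of all eligible genes. The density of this list was 185 per Mb, and its interval (22.4 to 667) held the overall 56.1. The ser-5 region ranked 4643, with 1.10 and 0.905 times the median in replicates 1 and 2.

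**Figure D5:**
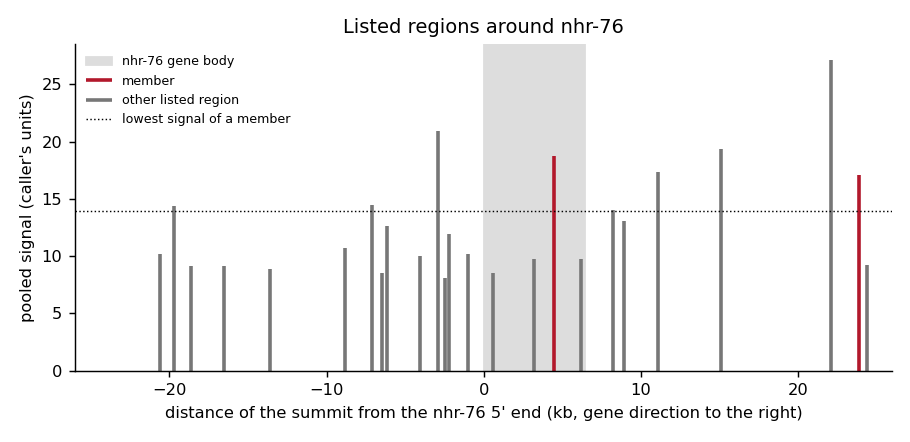
Listed regions within 25 kb of the nhr-76 5' end, with distance from it on the horizontal axis in kb and pooled signal on the vertical axis; coding regions of the set are marked. The region in nhr-76 stands at 18.8 and that in K11H12.9 at 17.1.

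Values on either side of the limits were close. The regions just inside rank 5000, in tln-1 and tag-115, had pooled signals of 13.99 and 13.98, and those just outside, in T04C9.1 and usp-5, had 13.98 each. The regions just over 1 kb, in R02C2.1 and mec-14, lay at 1003 and 1005 bp, and those just within it, in F49D11.3 and T28H11.8, at 998 and 1000 bp.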

How the data were processed

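ChIP-seq of tagged NHR-76 was carried out in 2 libraries of whole L1 larvae, biological replicates 1 and 2. The authors deposited peak lists on ce11 without headers, read in narrowPeak column order: the signal of each region (column 7) in the peak caller's units, and -log10 of q (column 9), both deposited as the caller wrote them. The caller, aligner, thresholds and read depth are not given in the sources used here. Lists on an earlier build were left out.

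Regions of the pooled list were joined to Ensembl release 115 genes of the same assembly (19973 protein-coding genes) and to RefSeq sequence. Library values are the signal of the overlapping region with the nearest summit, divided by the library's median listed signal, 6.50 and 6.07. Second matches were found with BLAST+ 2.17.0 (word size 28, at least 50 bp at 95% identity). Python 3.11.15, pandas 2.3.3, numpy 2.4.6, scipy 1.17.1 and matplotlib 3.10.9 were used. The overlap and distance steps were tested on simulated data. Intervals are Wilson or exact Poisson, at 95%, and cover counting error only.

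The regions and the 27 gene lists were chosen with earlier results of these data known, and several list patterns were narrowed after a first look at which genes they caught. Named genes are those with the 15 strongest regions, those in the reproducible list, genes with 3 or more regions, the regions at the limits and the strongest of each list; other genes named were picked after their values were seen.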

Additional observations from a re-analysis of the deposited data

How the results depend on the processing

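No paired analysis was possible because the study has 1 group. Of the values under alternatives, 44 stayed within 1.5 times for the number of regions, within the 95% interval for a share, or within the SD of the library medians (0.625) for GC; these limits are wide, and they include 884 regions at over 500 bp from 5' ends, 575 over 1 kb from transcript 5' ends too, and second matches in 1.12% with 10000 rows and 1.02% at over 500 bp. The number of coding regions was 271 with 2500 top rows, 1433 with 10000, 394 at over 2 kb from 5' ends and 193 when the whole region had to be coding; on the list of a single library it was 700 to 711. Median GC was 43.5% for wholly coding regions, and 40.4% to 41.3% on single-library lists. The share listed in both libraries was 79.7% with 2500 rows, 51.99% with 10000, 57.3% when the library's summit had to fall inside and 6.48% in the 5000 strongest of each; it cannot be recomputed on a single library. The share with a transcript 5' end within 1 kb was 34.95% at over 500 bp from 5' ends, 8.98% for ends within 500 bp and 25% in the 44 strong in both libraries (an alternative chosen after seeing the data), and 13.5% to 15.4% on single libraries. A second genomic match was present in 0% with 2500 rows, in 0% of the 44 and in 0.147% at 100 bp, and 0.563% to 0.714% on single libraries. The last coding exon held 9.39% at over 2 kb, 8.29% of wholly coding regions and 20.5% of the 44, and 14.8% to 16.4% on single libraries. The causes were not tested. Read depth is unknown.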
